A study of Homo sapiens with 6 samples.

Results

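The genes described here are the 8 subunit genes of the cytosolic chaperonin CCT (also called TRiC), which are TCP1, CCT2, CCT3, CCT4, CCT5, CCT6A, CCT7 and CCT8, together with the mitochondrial chaperonin gene HSPD1, which encodes HSP60, and its co-chaperonin gene HSPE1, which encodes HSP10. They were chosen by name, and all 10 were found among the 28495 genes listed, with mean levels above the minimum used for testing. The cells were NCI-H1299, a human line established from lung cancer and labelled lung adenocarcinoma. The 3 libraries labelled sh-CFB came from cells silenced for CFB, the gene of complement factor B, and the 3 labelled sh-NC came from control cells of the same line. Both groups share the cell line, and the labels give no time after silencing and no hairpin sequence. No label states that the replicates are separate cultures; the spread behind each p-value may therefore be technical. The sample titles name short hairpins, while the column names in the deposited table are of the siRNA kind, so the form of the reagent is not settled.

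Chaperonins are barrel-shaped folding machines that enclose an unfolded protein in a chamber and release it after ATP hydrolysis. The CCT barrel is built from stacked rings in which each of the 8 related subunits takes a fixed place in equal copy number, and it folds actin, tubulin and a set of other proteins that include cell cycle regulators and WD40 repeat proteins. HSP60 forms rings from a single kind of subunit in the mitochondrial matrix, where HSP10 acts as the lid. HSPD1 and HSPE1 are known as a head-to-head gene pair driven from a shared promoter region, and their transcription is raised by heat shock and by mitochondrial protein stress.

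The promoter windows below, from 250 bases before to 50 after a RefSeq start site (GRCh38.p14), are shown because the mitochondrial pair shares a start region and because they set a window with a heat shock element beside those of 2 CCT subunits that fell in sh-CFB. RefSeq windows were found for 9 of the 10 genes (12 windows in all). Capitals mark heat shock element pairs, spelled GAANNTTC or TTCNNGAA, and the E-box CACGTG. The CCT3 window has neither. All are written 5′ to 3′ on the strand of the gene: HSPD1 from chr2:197499791-197500090 (minus strand), HSPE1 from chr2:197500129-197500428 (plus), TCP1 from chr6:159789553-159789852 (minus) and CCT3 from chr1:156338243-156338542 (minus).
HSPD1: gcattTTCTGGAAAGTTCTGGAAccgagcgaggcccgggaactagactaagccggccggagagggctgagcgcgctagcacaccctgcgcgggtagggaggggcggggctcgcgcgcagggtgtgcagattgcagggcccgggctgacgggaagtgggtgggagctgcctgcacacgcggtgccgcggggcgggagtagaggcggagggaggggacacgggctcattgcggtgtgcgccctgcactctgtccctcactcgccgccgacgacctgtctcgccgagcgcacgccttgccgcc
HSPE1: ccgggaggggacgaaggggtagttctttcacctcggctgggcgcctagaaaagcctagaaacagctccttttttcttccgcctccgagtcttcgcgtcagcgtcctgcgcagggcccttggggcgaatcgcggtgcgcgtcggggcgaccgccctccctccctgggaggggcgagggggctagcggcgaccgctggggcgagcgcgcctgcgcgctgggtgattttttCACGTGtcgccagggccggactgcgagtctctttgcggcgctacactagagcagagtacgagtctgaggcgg
TCP1: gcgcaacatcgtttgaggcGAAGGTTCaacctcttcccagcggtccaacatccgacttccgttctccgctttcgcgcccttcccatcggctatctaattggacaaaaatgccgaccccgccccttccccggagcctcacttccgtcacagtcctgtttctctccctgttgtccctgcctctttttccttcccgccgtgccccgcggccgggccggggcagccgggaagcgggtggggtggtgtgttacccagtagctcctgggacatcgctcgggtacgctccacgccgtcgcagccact
CCT3: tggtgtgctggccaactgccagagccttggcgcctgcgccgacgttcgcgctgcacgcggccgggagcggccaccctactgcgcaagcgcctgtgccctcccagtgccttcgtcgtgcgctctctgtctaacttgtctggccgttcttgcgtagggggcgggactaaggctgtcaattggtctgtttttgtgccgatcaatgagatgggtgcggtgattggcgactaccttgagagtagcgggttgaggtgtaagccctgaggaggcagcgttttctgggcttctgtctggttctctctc

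The HSPD1 window holds a run of 4 alternating heat shock units, 18 bases from 197500068 to 197500085 on chromosome 2, which ends 294 bases before the RefSeq start site of HSPE1. In GENCODE 29 the run lies 21 to 38 bases upstream of the start of the principal HSPD1 transcript, and downstream of the start of the principal HSPE1 transcript at 197499994. A run of at least 3 such units was found in 172 of 35116 RefSeq promoter windows of the same length (0.490%), and in no other window of the 10 genes. A single pair of units is common, at 13.5% of all windows. Pairs stood in the TCP1 window at position -231 from the start site, in 1 of the 2 CCT4 windows at position 39 and in 1 of the 2 CCT2 windows at position -89. The search covered both strands, and pairs within the HSPD1 run overlap each other. The same E-box, at 197500357 to 197500362, lies in the HSPE1 window above and in a second HSPD1 window (chr2:197500225-197500524). Those start sites are 105 bases apart and the windows share 204 bases. The HSPD1 and HSPE1 windows printed above have start sites 539 bases apart and share 0 bases. The E-box was present in 7.26% of all windows, and the CCAAT box in 34.6% of all windows and in those of CCT3, TCP1 and CCT8 and 1 of the 2 of CCT2. The windows of CCT5 and CCT7 held none of these motifs. RefSeq start sites lay 70 to 616 bases from the principal GENCODE 29 starts, the farthest being CCT5, and 8 of the 12 windows hold that principal start; those of HSPE1 and CCT5 do not. These matches describe letters in a window and do not show that a factor binds there.

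Recovered library totals were 26.2, 33.4 and 38.4 M reads (M, 1e6) in sh-CFB replicates 1 to 3 and 39.4, 40.0 and 32.9 M in sh-NC replicates 1 to 3. CFB itself had 0, 0 and 2 reads in sh-CFB, against 1, 6 and 5 reads in sh-NC, too few to check the label of any single library. Among epithelial markers, KRT8 averaged 48.4 FPKM in sh-CFB and 40.0 FPKM in sh-NC, while EPCAM, CDH1, SFTPC and SFTPB were at or near 0 in all libraries, as were the lung lineage markers NKX2-1 and NAPSA. KRT18 averaged 162.9 FPKM in sh-CFB and 172.9 FPKM in sh-NC, and KRT7 averaged 1.54 FPKM in sh-CFB and 1.40 FPKM in sh-NC. Among mesenchymal markers, VIM averaged 434.8 FPKM in sh-CFB and 407.4 FPKM in sh-NC. CDH2 and FN1 were low, at means of 1.81 and 1.50 FPKM in sh-CFB, against 2.21 and 1.82 FPKM in sh-NC. Markers of immune, endothelial, erythroid and fibroblast cells were summed for each cell type separately. Each sum stayed at or below 0.234 FPKM in every sh-CFB library and 0.282 FPKM in every sh-NC library. Of these markers, HBA2, HBB, COL3A1, LUM and CD3E were not among the genes listed and added 0 to the sums. The libraries also differed in how levels varied with GC content. Over 12397 genes (a description across genes, not replicates), GC content and the deviation from each gene's mean gave Spearman rho values of 0.60, -0.10 and -0.16 for sh-CFB replicates 1 to 3, against -0.55, -0.25 and 0.23 for sh-NC replicates 1 to 3. In such bulk samples, scaled to library size, neither the number of cells nor the total RNA per cell is measured.

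All 10 chaperonin mRNAs were lower in every sh-CFB library than in any sh-NC library. Of these, 4 fell past the test, in limma and in voom on recovered reads: CCT5, CCT2, CCT3 and TCP1, by 34.2% to 46.3%. The other 4 CCT subunits and the mitochondrial pair were 17.5% to 31.3% lower in the fit and did not pass. The test was limma on log2(FPKM + 0.5) with Benjamini-Hochberg adjustment over 12466 genes, where FPKM is the number of fragments scaled by gene length and by the size of the library. It called 7.45% of tested genes in either direction and 5.71% lower in sh-CFB, against 4 of these 10. With voom, 4.27% of tested genes were called lower. Groups without overlap and lower in sh-CFB were found for 23.6% of tested genes, against 10 of 10 here. The median log2 fold change was -0.54 over the 10 genes and -0.15 over all tested genes, of which 8437 had a negative value. A two-sided exact permutation test of 3 libraries against 3 gave p = 0.1 for each of the 10 genes, the smallest it can give. Any gene whose groups do not overlap gets this value.

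**Figure D1:**
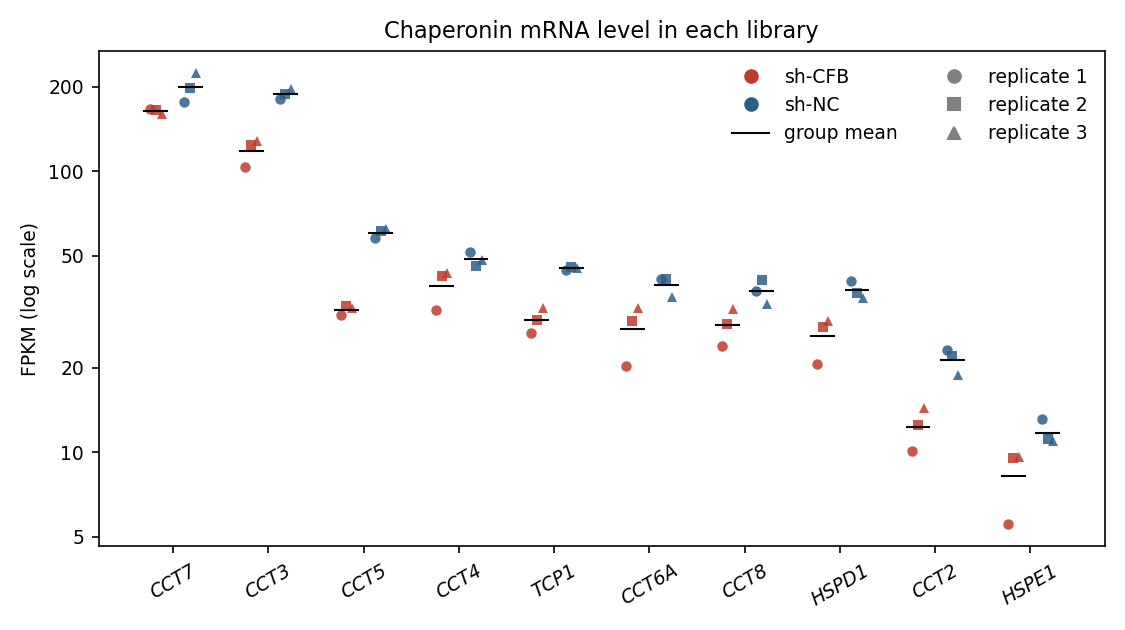
FPKM (log axis) of each of the 10 genes in each library, with sh-CFB in red left of sh-NC in blue, marker shapes for replicates and black lines for group means (n = 3 each). For every gene the 3 sh-CFB points lie below the 3 sh-NC points; CCT7 and CCT3 stand above the other 8 genes in all 6 libraries.

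CCT5, the epsilon subunit, had the lowest fold change of the 10. The gene (ENSG00000150753) lies at chr5:10249921-10266412 (GENCODE 29, GRCh38, plus strand). Its level was 30.8, 33.2 and 32.6 FPKM in sh-CFB, against 57.8, 61.1 and 62.4 FPKM in sh-NC, which rests on 4550 to 7062 reads per sh-CFB library and 11593 to 13790 per sh-NC library. The 6 values form a tight group on each side, with no sh-CFB library near the lowest sh-NC one. The log2 fold change was -0.90 (SE 0.09, limma adjusted p = 0.00727), and 1.36% of tested genes had a lower one. An annotated antisense gene, AC012640.4, covers 47.8% of the bases of the principal CCT5 transcript. It held at most 4 reads in any library. The strand setting used for counting is not given, so this count cannot show whether the shared bases affected the CCT5 level.

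CCT3, the gamma subunit, was the second most abundant of the set. The gene (ENSG00000163468) lies at chr1:156308968-156367873 on the minus strand. It stood at 103.2, 123.7 and 127.6 FPKM in sh-CFB, against 180.7, 188.0 and 196.9 FPKM in sh-NC. All sh-CFB libraries were below all sh-NC libraries, with replicate 1 the lowest in each group. The log2 fold change was -0.68 (SE 0.11, limma adjusted p = 0.0153).

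TCP1, the alpha subunit that gave the complex its older name, differed least among sh-NC libraries. The gene (ENSG00000120438) lies at chr6:159778498-159789749 on the minus strand. It was at 26.6, 29.6 and 32.6 FPKM in sh-CFB, against 44.5, 45.7 and 45.1 FPKM in sh-NC. The spread of the sh-CFB libraries (SD 2.97) was wider than that of the sh-NC libraries (SD 0.600), and the groups were well apart. The log2 fold change was -0.60 (SE 0.10, limma adjusted p = 0.0167). ACAT2, which encodes an acetyl-CoA acetyltransferase on the opposite strand, covers 15.9% of the principal TCP1 transcript, and itself fell in sh-CFB, with a log2 fold change of -0.88 (limma adjusted p = 0.00789). The strand setting used for counting is not given in the sources used here, and without strand the reads of such overlapping ends cannot be told apart.

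CCT2, the beta subunit, had the lowest level of the 8 subunits in every library. The gene (ENSG00000166226) lies at chr12:69585334-69601570 on the plus strand. Its level was 10.1, 12.5 and 14.3 FPKM in sh-CFB, against 23.1, 22.0 and 18.8 FPKM in sh-NC. Replicate 1 was the lowest of the sh-CFB libraries and the highest of the sh-NC libraries, so the gap between groups was narrowest for sh-CFB replicate 3 against sh-NC replicate 3. The log2 fold change was -0.77 (SE 0.15, limma adjusted p = 0.0257).

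The other 4 subunits kept the groups apart by less. CCT6A (zeta; ENSG00000146731, chr7:56051630-56063989, plus strand) was at 20.2, 29.4 and 32.7 FPKM in sh-CFB, against 41.5, 41.2 and 35.6 FPKM in sh-NC, a log2 fold change of -0.54 (SE 0.18, limma adjusted p = 0.105). CCT8 (theta; ENSG00000156261, chr21:29055805-29073797, minus strand) was at 24.0, 28.6 and 32.4 FPKM in sh-CFB, against 37.4, 41.0 and 33.6 FPKM in sh-NC, a log2 fold change of -0.40 (SE 0.13, limma adjusted p = 0.115). In both genes sh-CFB replicate 1 was the lowest library and sh-NC replicate 3 came nearest to sh-CFB. CCT4 (delta; ENSG00000115484, chr2:61868089-61888804, minus strand) was at 32.0, 42.3 and 43.3 FPKM in sh-CFB, against 51.8, 46.0 and 48.4 FPKM in sh-NC, a log2 fold change of -0.32 (SE 0.13, limma adjusted p = 0.176). CCT7 (eta; ENSG00000135624, chr2:73233420-73253021, plus strand), the most abundant member on average, was at 166.9, 165.0 and 159.3 FPKM in sh-CFB, against 176.6, 198.6 and 223.1 FPKM in sh-NC, a log2 fold change of -0.28 (SE 0.11, limma adjusted p = 0.158). CCT7 varied little among sh-CFB libraries and more among sh-NC libraries, the reverse of TCP1.

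HSPD1 and HSPE1 stood lower by nearly the same amount. HSPD1 (ENSG00000144381, chr2:197486581-197516737, minus strand) was at 20.7, 28.0 and 29.3 FPKM in sh-CFB, against 40.9, 36.9 and 35.3 FPKM in sh-NC, a log2 fold change of -0.54 (SE 0.14, limma adjusted p = 0.0631). HSPE1 (ENSG00000115541, chr2:197499994-197503457, plus strand) was at 5.56, 9.56 and 9.65 FPKM in sh-CFB, against 13.2, 11.2 and 11.0 FPKM in sh-NC, a log2 fold change of -0.52 (SE 0.21, limma adjusted p = 0.170). For both, replicate 1 was the lowest sh-CFB library and the highest sh-NC library. The HSPD1 to HSPE1 ratio of FPKM was 3.71, 2.93 and 3.04 in sh-CFB, against 3.10, 3.31 and 3.22 in sh-NC. It averaged 3.23 ± 0.426 in sh-CFB and 3.21 ± 0.105 in sh-NC (SD, n = 3 each). The ratio overlapped between groups (two-sided exact permutation test, p = 1). Leaving out 1 library at a time, the log2 difference of the ratio stayed between -0.11 and 0.07.

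Near-identical copies are a feature of the mitochondrial pair. Of the 851 stretches of 100 bases in the principal HSPE1 transcript, 145 (17.0%) also occur in another annotated gene, which was HSPE1-MOB4, HSPE1P3 or HSPE1P2. For HSPD1 it was 92 of 2356 (3.90%), and for the 8 CCT subunits 0. How reads that fit several places were treated is not given in the sources used here, so the HSPE1 level is uncertain. Annotated pseudogenes of the 10 genes were low where listed: 4 of 25 had a mean of at least 0.5 FPKM, the highest being HSPE1P2 at 2.41 FPKM. The readthrough gene HSPE1-MOB4 was not among the genes listed, so no level can be given for it. Its neighbour MOB4 averaged 1.50 FPKM with a log2 fold change of -0.12 (limma adjusted p = 0.802). HSPE1 exons also overlap HSPD1 exons on the opposite strand over 281 bases, which is 29.6% of the principal HSPE1 transcript.

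The subunits of CCT were far from equal at the mRNA level, although the complex holds them in equal number. Summed over the 8 subunits, the level was 413.8, 464.3 and 474.8 FPKM in sh-CFB, against 613.3, 643.6 and 664.0 FPKM in sh-NC. CCT3 and CCT7 together made up 65.3%, 62.2% and 60.4% of that sum in sh-CFB, against 58.2%, 60.1% and 63.3% in sh-NC. This share ranks the 6 libraries in the same order as their rho with GC content. CCT3 and CCT7 had a GC content of 51.2% and 51.3%, against 43.1% to 45.9% for the other 6 subunits. Whether GC content shaped the subunit balance was not tested. The highest subunit exceeded the lowest by 16.5, 13.1 and 11.1 times in sh-CFB, against 7.81, 9.04 and 11.9 times in sh-NC. These ratios overlap between the groups. The lowest subunit was CCT2 in all 6 libraries, and the highest was CCT7 in 5 libraries and CCT3 in sh-NC replicate 1. Without CCT3 and CCT7, the remaining 6 subunits spanned 3.02 to 3.37 times in sh-CFB and 2.50 to 3.32 times in sh-NC.

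In order of mean FPKM, the 10 genes in sh-CFB ran CCT7, CCT3, CCT4, CCT5, TCP1, CCT8, CCT6A, HSPD1, CCT2 and HSPE1. The ranges of neighbours overlapped from CCT4 through HSPD1, and were separate between CCT7 and CCT3, CCT3 and CCT4, HSPD1 and CCT2, and CCT2 and HSPE1. In sh-NC the order was CCT7, CCT3, CCT5, CCT4, TCP1, CCT6A, HSPD1, CCT8, CCT2 and HSPE1. There the ranges of CCT7 and CCT3 overlapped, as did those of CCT6A and HSPD1 and of HSPD1 and CCT8, and the other neighbours were separate. CCT5 was above CCT4 in 3 of 3 sh-NC libraries, and CCT4 was above CCT5 in 3 of 3 sh-CFB libraries.

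The order depends on the gene length used. The length behind each FPKM value, recovered together with the reads, was 1.07 times that of the principal transcript for CCT4, 1.95 times for TCP1, 2.07 times for CCT2 and 3.11 times for HSPD1. For HSPD1 it was 7629 bases, also above the 4245 bases of exon annotated in GENCODE 29, so its FPKM may understate its level against the other genes. Scaled to the principal transcript, TCP1 averaged 57.9 in sh-CFB and 88.2 in sh-NC, in the same unit as FPKM but with the shorter length. On that scale CCT5 averaged 49.4 in sh-CFB and 92.7 in sh-NC, and CCT4 averaged 42.0 in sh-CFB and 52.2 in sh-NC. CCT4 thus moved from among the higher of the 6 less abundant subunits to below CCT8, while CCT7 and CCT3 remained the highest and CCT2 the lowest by mean in each group. HSPD1 averaged 80.8 in sh-CFB and 117.1 in sh-NC on that scale, and the mean HSPD1 to HSPE1 ratio was 5.22 in sh-CFB and 5.20 in sh-NC.

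**Figure D2:**
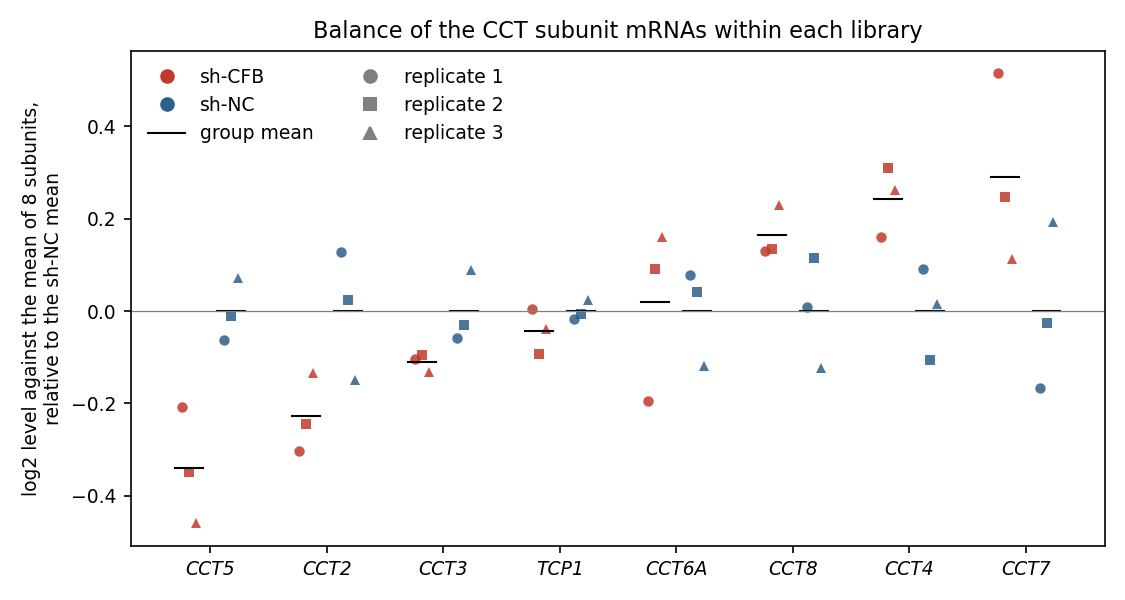
Log2 level of each CCT subunit against the mean of the 8 subunits in the same library, drawn relative to the sh-NC mean of that subunit, with sh-CFB in red left of sh-NC in blue and black lines for group means (n = 3 each). CCT5 and CCT3 lie below the sh-NC points in all 3 sh-CFB libraries, CCT4 and CCT8 lie above, and the groups of CCT2, TCP1, CCT6A and CCT7 overlap.

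Each subunit was also measured against the mean of the 8 in the same library, a quantity that no rescaling of a whole library can move. On it, 4 subunits had groups that did not overlap. No share over all genes was computed for this quantity. On FPKM itself, groups did not overlap for 2943 of 12466 tested genes lower in sh-CFB and for 1252 higher. The 8 values are centred within each library, so lower values of some subunits raise those of the others. CCT5 stood at -0.18, -0.32 and -0.43 on the log2 scale in sh-CFB, against -0.04, 0.02 and 0.10 in sh-NC, a difference of -0.34. CCT3 stood at 1.56, 1.57 and 1.53 in sh-CFB, against 1.61, 1.64 and 1.75 in sh-NC, a difference of -0.11. Both groups of values are separate for each of these genes. CCT4 stood at -0.13, 0.02 and -0.02 in sh-CFB, against -0.20, -0.39 and -0.27 in sh-NC, a difference of 0.24. CCT8 stood at -0.54, -0.54 and -0.44 in sh-CFB, against -0.66, -0.56 and -0.80 in sh-NC, a difference of 0.16. The values of CCT4 and CCT8 were thus higher in every sh-CFB library, relative to the other subunits, although their levels were lower. For these 4 genes a two-sided exact permutation test gave p = 0.1, the smallest possible with 3 libraries against 3. Groups that do not overlap always give this value, so it only restates the separation.

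CCT7 differed by 0.29 in the same direction as CCT4, with overlapping groups (exact permutation p = 0.2). Its share of the summed FPKM was 40.3%, 35.5% and 33.5% in sh-CFB, against 28.8%, 30.9% and 33.6% in sh-NC, a difference of 5.39 percentage points. The highest and the lowest share belong to replicate 1 of sh-CFB and of sh-NC, and without replicate 1 of both groups the difference was 2.31 points. The same libraries also had the highest and the lowest rho with GC content. CCT5 held 7.44%, 7.15% and 6.87% in sh-CFB, against 9.42%, 9.49% and 9.40% in sh-NC. CCT2 differed by -0.23, TCP1 by -0.04 and CCT6A by 0.02 on the log2 scale against the subunit mean, each with overlapping groups.

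**Figure D3:**
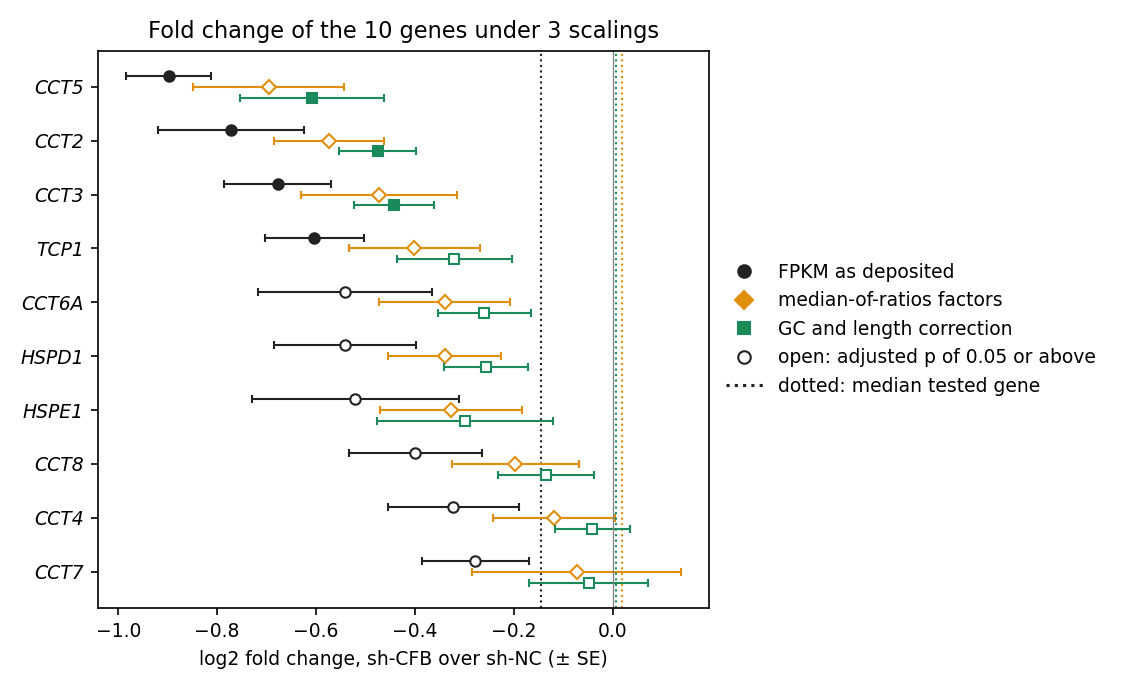
Log2 fold change of sh-CFB over sh-NC (± SE) for each gene under FPKM as deposited, median-of-ratios factors and a correction for GC content and length, with filled markers for adjusted p under 0.05 and dotted lines for the median tested gene. All 30 estimates are below 0; 4 of 10 are filled as deposited, none with median-of-ratios factors and 3 with GC and length corrected.

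Each of the 10 fold changes remained negative under the 18 other settings, but their size and their calls depended on the setting. The median gene's offset of -0.15 moved to 0.02 with median-of-ratios factors, under which 0 of the 10 passed (limma) and 1.11% of tested genes were called lower. CCT2 then had an adjusted p of 0.0524 and CCT5 of 0.0632, with log2 fold changes of -0.57 and -0.70, and 6 of the 10 genes had an unadjusted p under 0.05, against 21.8% of all tested genes in either direction. The longest transcripts of the 10 genes had a GC content of 43.1% to 51.3%, with a median of 44.6%. Over tested genes the median was 49.3% and the lower quartile 42.6%. After a correction of each library for GC content and length, CCT5, CCT2 and CCT3 passed (limma), at log2 fold changes of -0.61, -0.48 and -0.44, where 5.99% of tested genes were called lower. TCP1 was then at -0.32 (limma adjusted p = 0.121), while CCT4 and CCT7 were at -0.04 and -0.05. With this correction the median log2 fold change was -0.28 over the 10 genes and 0.01 over all tested genes.

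Single libraries also decided calls. In sh-CFB replicate 1, 9 of the 10 genes lay below their group mean, by a median of 0.24 on the log2 scale, but without that library the same number, 4, passed, when 3.26% of tested genes were called lower (limma). Among those that did not pass, HSPE1 then stood at a log2 fold change of -0.27, CCT6A at -0.34 and HSPD1 at -0.39. Without sh-CFB replicate 2 only CCT5 passed (limma adjusted p = 0.0408), when 0.249% of tested genes were called lower. Without sh-NC replicate 1, CCT5 and CCT3 passed, when 1.65% were called lower. Without sh-NC replicate 2 none of the 10 passed in limma, when 0.112% were called lower, and CCT5 had an adjusted p of 0.0611 at a log2 fold change of -0.89, with 6 of 10 at an unadjusted p under 0.05, against 17% of all tested genes. With the replicate number as a block, 0 of the 10 passed, when 0% of tested genes were called lower (limma), and 7 of the 10 had an unadjusted p under 0.05, against 14.2% of all tested genes. The block together with the GC and length correction also gave 0 of 10 and 0%, with 3 of the 10 at an unadjusted p under 0.05, against 19.6% of all tested genes.

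Over the 6 libraries the 10 genes varied together to different degrees. The Pearson correlation of log2 levels, given as a description over 6 points that share the group difference and the GC axis, was 0.99 between TCP1 and CCT3 and between CCT4 and HSPE1, and 0.97 between HSPD1 and HSPE1. CCT7 was the least alike, at 0.41 with HSPE1 and 0.47 with CCT4. Outside the set, the tested genes with a mean of at least 10 FPKM whose levels were most like the mean of the 8 CCT subunits were FTSJ3, HDAC1, GMPR2, SRSF4 and TM7SF3, at Pearson correlations between 0.998 and 0.999. For the mean of HSPD1 and HSPE1 they were TSG101, MORF4L1, RPL7L1, WSB2 and BCL2L13, at 0.995 to 0.997. Of 3377 genes ranked, 375 exceeded 0.95 for the first and 190 for the second, so such likeness was common.

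Prefoldin, which hands nascent actin and tubulin to CCT, had 6 of 6 genes tested and none passed in limma or in voom on recovered reads, with 2 at an unadjusted p under 0.05, a level that 25.9% of all tested genes reached in limma. PFDN2, its most abundant member, was at 177.1, 156.6 and 166.4 FPKM in sh-CFB, against 198.4, 202.6 and 208.2 FPKM in sh-NC, a log2 fold change of -0.29 (limma adjusted p = 0.0981). Of the phosducin-like cofactors that bind CCT, 3 of 3 were tested and none passed in limma or voom, with 1 at an unadjusted p under 0.05, near that share. PDCL3, the most abundant, averaged 6.34 FPKM in sh-CFB and 9.60 FPKM in sh-NC (log2 fold change -0.58, limma adjusted p = 0.0767). Of the chaperonin-like genes, 2 of 4 were tested, and 0 passed in either tool or at an unadjusted p under 0.05. The most abundant, BBS10, was at a log2 fold change of -0.40 with overlapping groups, and the testis paralogue CCT6B was close to 0. Median log2 fold changes were -0.27 for prefoldin, -0.36 for the phosducin-like genes and -0.24 for the chaperonin-like genes, against -0.15 over all tested genes.

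Among 20 genes whose proteins CCT folds, 3 fell, 0 rose and 17 did not pass (limma), against 5.71% of all tested genes called lower. The median log2 fold change was -0.26. All 3 that fell were tubulins, while TUBB, TUBA1C and TUBB4B did not pass. ACTG1, the most abundant of the 20, was higher in every sh-CFB library than in any sh-NC one. Its log2 fold change was 0.24 (limma adjusted p = 0.340). Groups did not overlap for 9 of the 20 lower in sh-CFB and 2 higher, against 2943 and 1252 of 12466 tested genes. TUBG1, the gamma-tubulin of microtubule nucleation, was at 11.4, 10.2 and 9.48 FPKM in sh-CFB, against 16.5, 19.1 and 20.8 FPKM in sh-NC, with a log2 fold change of -0.83 (SE 0.12, limma adjusted p = 0.0135). TUBA1B, an alpha-tubulin, was at 133.8, 111.8 and 99.8 FPKM in sh-CFB, against 161.4, 178.7 and 185.4 FPKM in sh-NC, with a log2 fold change of -0.61 (SE 0.13, limma adjusted p = 0.0317). The groups were separate for both genes. The third was TUBA1A, which resembles TUBA1B closely enough that reads may be split between them. After the GC and length correction TUBG1 passed (limma), while TUBA1B stood at a log2 fold change of -0.48 (limma adjusted p = 0.0587) and TUBA1A at -0.21 (limma adjusted p = 0.154). Of the tubulin folding cofactors, 4 of 6 were tested, and 0 passed in either tool or at an unadjusted p under 0.05. TBCB, the most abundant, averaged 159.3 FPKM in sh-CFB and 151.6 FPKM in sh-NC.

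In mitochondria, the HSP70 system that imports and folds proteins ahead of HSP60 had 9 of 10 genes tested. Of these, 3 fell, 0 rose and 6 did not pass (limma), against 5.71% of all tested genes called lower. HSPA9, the mitochondrial HSP70 itself, was at 13.2, 16.5 and 19.9 FPKM in sh-CFB, against 39.0, 33.3 and 27.2 FPKM in sh-NC, with a log2 fold change of -0.99 (SE 0.18, limma adjusted p = 0.0218). GRPEL1, its nucleotide exchange factor, averaged 20.4 ± 0.495 FPKM in sh-CFB and 30.3 ± 0.179 FPKM in sh-NC (SD, n = 3 each), with a log2 fold change of -0.56 (limma adjusted p = 0.0135). The groups were separate for both genes, and the third to fall was TIMM44, which tethers HSP70 to the import channel. The median of the list was -0.30. With median-of-ratios factors HSPA9 still passed, at a log2 fold change of -0.79 (limma adjusted p = 0.0399). Corrected for GC content and length, HSPA9 and TIMM44 passed (limma), while GRPEL1 stood at -0.26 (limma adjusted p = 0.164).

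Few mitochondrial proteases and stress regulators passed the test. Of 10 protease genes tested none passed in limma or voom, with 2 at an unadjusted p under 0.05, against 25.9% of all tested genes. CLPP, the most abundant over all 6 libraries, averaged 82.2 FPKM in sh-CFB and 71.8 FPKM in sh-NC, with overlapping groups, and the list's median was -0.25. Of 6 regulators of mitochondrial and heat stress responses 1 fell, which was CEBPB, a basic leucine zipper factor, at 21.8, 19.9 and 22.4 FPKM in sh-CFB, against 34.1, 32.9 and 29.7 FPKM in sh-NC (log2 fold change -0.58, SE 0.10, limma adjusted p = 0.0190). The list's median was -0.22. Groups did not overlap for 3 of the 6 lower in sh-CFB and 1 higher, against 2943 and 1252 of 12466 tested genes. The higher one was HSF1, at a log2 fold change of 0.28 (limma adjusted p = 0.220). DDIT3, among the lower ones, was at -0.91 (limma adjusted p = 0.0741). Over the 8 related lists, 7 of 60 tested genes fell and none rose (limma), which is read against the 5.71% of all tested genes that fell. With median-of-ratios factors 1 of the 7, HSPA9, still passed, which is 1 of 60 against 1.11% of all tested genes called lower.

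**Figure D4:**
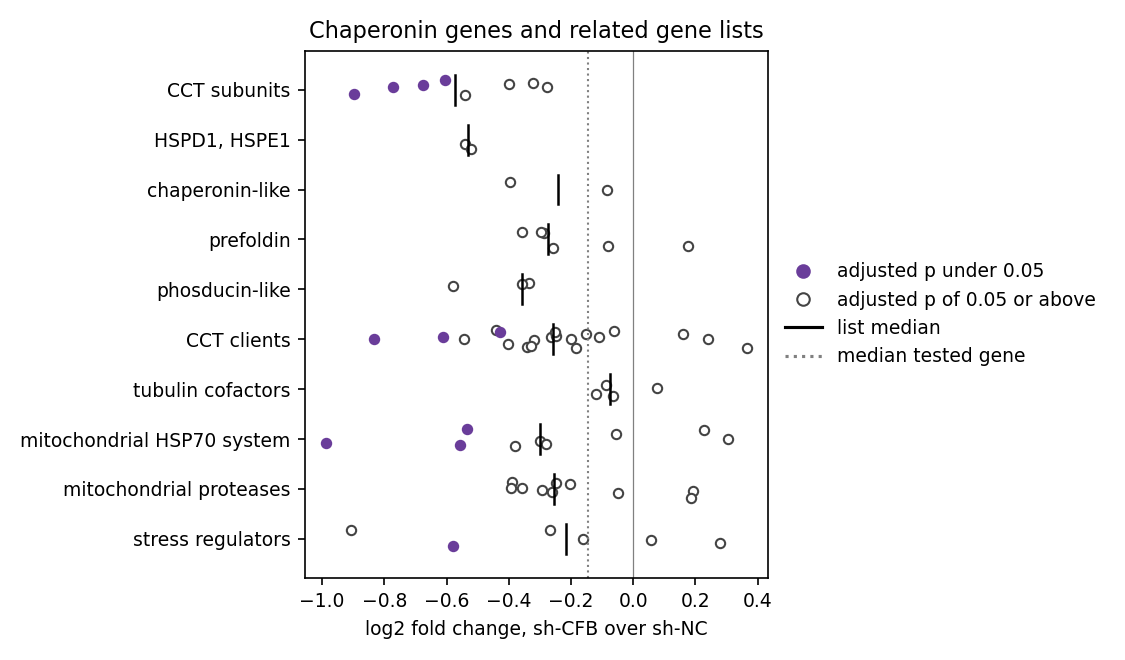
Log2 fold change of sh-CFB over sh-NC for each tested gene of the CCT subunits, the HSPD1 and HSPE1 pair and 8 related lists, with filled points for adjusted p under 0.05, black bars for list medians and a dotted line for the median tested gene at -0.15. All CCT subunits lie left of the dotted line; filled points outside the CCT row are found in the client, mitochondrial HSP70 and stress regulator rows.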

How the data were processed

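RNA was measured in 6 libraries, 3 per group, per the labels made from total RNA with a stranded poly(A) kit. The authors deposited FPKM per gene in a single table; the submitters' processing notes list STAR 2.7.3a, featureCounts 2.0.1, Trimmomatic 0.39 and FastQC 0.11.9, with the build GRCh38. Annotation release and strand setting are not given there or in the labels. To recover whole reads behind the FPKM values, each library total was the whole number that most low values pointed to, given annotated gene lengths. With that total, the annotated length gave whole reads for 53.6% of genes, within a tolerance of 0.02. For the rest, a length was searched that made the reads whole. That 100% of genes then had whole reads follows in part from this search. The recovered gene reads summed to 101.0% to 101.4% of the library totals, so reads and lengths of some genes are approximate. Of 28495 genes, 22492 had a symbol.

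Genes with a mean of at least 0.5 FPKM were tested with limma 3.58.1 (R 4.3.3, trend) on log2(FPKM + 0.5), two-sided, at an adjusted p of 0.05. This scale understates changes of low genes. The fit was tested on simulated data. Alternatives were other pseudocounts and filters, median-of-ratios factors, equal totals, quantile normalization, a lowess correction for GC content and length, voom on recovered reads, a replicate block and leaving out libraries. Principal transcript lengths were added after seeing the data. Coordinates, lengths and GC content came from GENCODE 29, promoters and motif backgrounds from RefSeq. All 10 genes are named; in each related list up to 2 changed genes per direction, or the most abundant tested gene, have values given, and other names were chosen after their values were seen. The 10 genes and all lists were chosen with earlier results of these data known. Other steps used matplotlib 3.10.9, scipy 1.17.1, numpy 2.4.6 and pandas 2.3.3 in Python 3.11.15.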

Additional observations from a re-analysis of the deposited data

How the results depend on the processing

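Directions of all 10 chaperonin genes were kept under the 18 alternatives tried. CCT5 passed the test in 14 of them, CCT3 in 13, CCT2 and TCP1 in 11 each and HSPD1 in 1. The number of the 10 genes past the test was 4 as reported, 0 with median-of-ratios factors, and 0 to 4 leaving out 1 library at a time. Genes changed across all tested genes numbered 929 as reported, 324 with no filter on low values, 206 with median-of-ratios factors, and 20 to 540 leaving out 1 library. In the related lists 7 genes changed as reported, against 4 with no filter, 12 with a mean of at least 5 FPKM, 1 with median-of-ratios factors, 11 with equal totals, 12 with quantile normalization and 0 to 6 leaving out 1 library. The CCT7 share difference was 5.39 percentage points as reported, 2.31 without replicate 1 of both groups and 3.46 to 6.86 leaving out 1 library. Against the subunit mean, 79 of 80 alternative values moved by less than the spread between replicates. The other was CCT7 without replicate 1 of both groups, at 0.10 against 0.29. Equal totals and principal transcript lengths cannot move this difference between groups, so their values, counted among the 80, were fixed in advance. Without the filter CCT2 had an adjusted p of 0.0780 in limma. The cause of these differences was not tested.

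With a replicate block, 0 of the 10 genes, 0 of all tested genes and 0 genes of the related lists passed, with and without the GC and length correction, while 1770 tested genes had an unadjusted p under 0.05 in limma with the block alone and 2438 with both. Same-numbered libraries of the groups had correlations of their deviations of -0.54, 0.07 and -0.45. The deviations also follow GC content, so these values cannot decide whether the numbers pair the samples. Depth limits HSPE1 most, at 266 reads in the smallest library.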
